A study of Culex quinquefasciatus and Culex pipiens molestus with 2 samples.

Results

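Exopeptidases remove amino acids or short peptides from the ends of protein chains, and metalloproteases cut proteins with the help of a metal ion, usually zinc. Both were followed here in poly(A)-selected RNA from females of 2 house mosquitoes of the same species complex, Culex pipiens molestus and its relative Culex pipiens quinquefasciatus. The members were all transcript models whose product description names a carboxypeptidase, an aminopeptidase, a dipeptidyl peptidase, a neprilysin, an endothelin-converting or angiotensin-converting enzyme, or a metalloprotease or metalloproteinase. Vitellogenic carboxypeptidases and inhibitors were left out. This gave 131 of the 16198 models listed in at least 1 of the deposited tables. Names are the product descriptions of those tables, each CPIJ identifier stands for 1 transcript model, and genome positions and sequences were not used here.

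Each taxon had 1 library, made from the pooled RNA of 30 females of a laboratory strain. Neither age nor feeding state of the females is stated in the labels. Uniquely assigned reads came to 9.79 M (mega) for molestus and 10.17 M for quinquefasciatus. The tables were tied to the taxa by the abbreviations Cxm and Cxq in their names, on which all directions depend. With 1 library per taxon no difference has a replicate check, a taxon and its library cannot be told apart, and no test was made. Intervals are exact 95% intervals that cover counting error only. PCR copies of a molecule were not marked by molecular identifiers, so the intervals can be too narrow even for that error.

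In a mosquito midgut, trypsin-like endopeptidases cut food protein into peptides, carboxypeptidases and aminopeptidases trim these from either end, and the free amino acids and small peptides are absorbed. Other exopeptidases work inside the cell, where they finish the breakdown of peptides released by the proteasome or the lysosome, or outside it, where neprilysins and angiotensin-converting enzymes inactivate or mature signalling peptides. Metalloproteases also include enzymes of the extracellular matrix and quality-control proteases of the mitochondrial inner membrane.

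The class as a whole took a similar share of both libraries, while its single models were mostly lower in the molestus library. It held 33206 reads or 0.339% (0.336 to 0.343) of the molestus library and 38115 reads or 0.375% (0.371 to 0.379) of the quinquefasciatus library. Levels were compared as log2(RPKM + 1), where RPKM counts reads per kilobase of a model for each M of assigned reads, for models that reached 1 RPKM in either library. A model at least 2-fold apart on that scale is placed below on the side of the library with the higher level. Of the 101 members that met the minimum, 9 lay on the molestus side and 45 on the quinquefasciatus side. Over all 12789 models compared, 22.8% lay on the molestus side and 18.0% on the quinquefasciatus side, against 8.91% and 44.6% of the members. The fold had a counting interval wholly beyond 2-fold for 7 members on the molestus side and 42 on the quinquefasciatus side, where 16.7% and 12.8% of all compared models did so. The median log2 ratio, molestus over quinquefasciatus, was -0.82 over the members and 0.18 over all compared models. Scaling moved the background: with scaling factors from the trimmed mean of M-values (TMM), which shift every log2 ratio by -0.24, 2145 of all compared models lay on the molestus side and 2818 on the quinquefasciatus side, in place of 2914 and 2303. Members then stood at 6 and 50. In bulk RNA of whole females, fewer cells of a type and less RNA per cell cannot be told apart.

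The minimum itself admitted low models through the library in which they were high. Of the 101 compared members, 26 reached 1 RPKM in the quinquefasciatus library alone and 2 in the molestus library alone. Among the 73 members with at least 1 RPKM in both libraries, 7 lay on the molestus side and 24 on the quinquefasciatus side, or 9.59% and 32.9%, where all 10767 such models gave 23.3% and 13.9%. The other 30 members lay below 1 RPKM in both libraries. Over all 131 members, 19 had 0 reads in the molestus and 2 had 0 reads in the quinquefasciatus library, where 8.42% and 4.69% of all listed models had 0 reads. How well the reads of each taxon matched the models was not tested, so 0 reads need not mean that a transcript was absent. For a model of 1 kb, a floor of 3 reads stands for 0.307 RPKM (molestus) or 0.295 RPKM (quinquefasciatus).

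**Figure D1:**
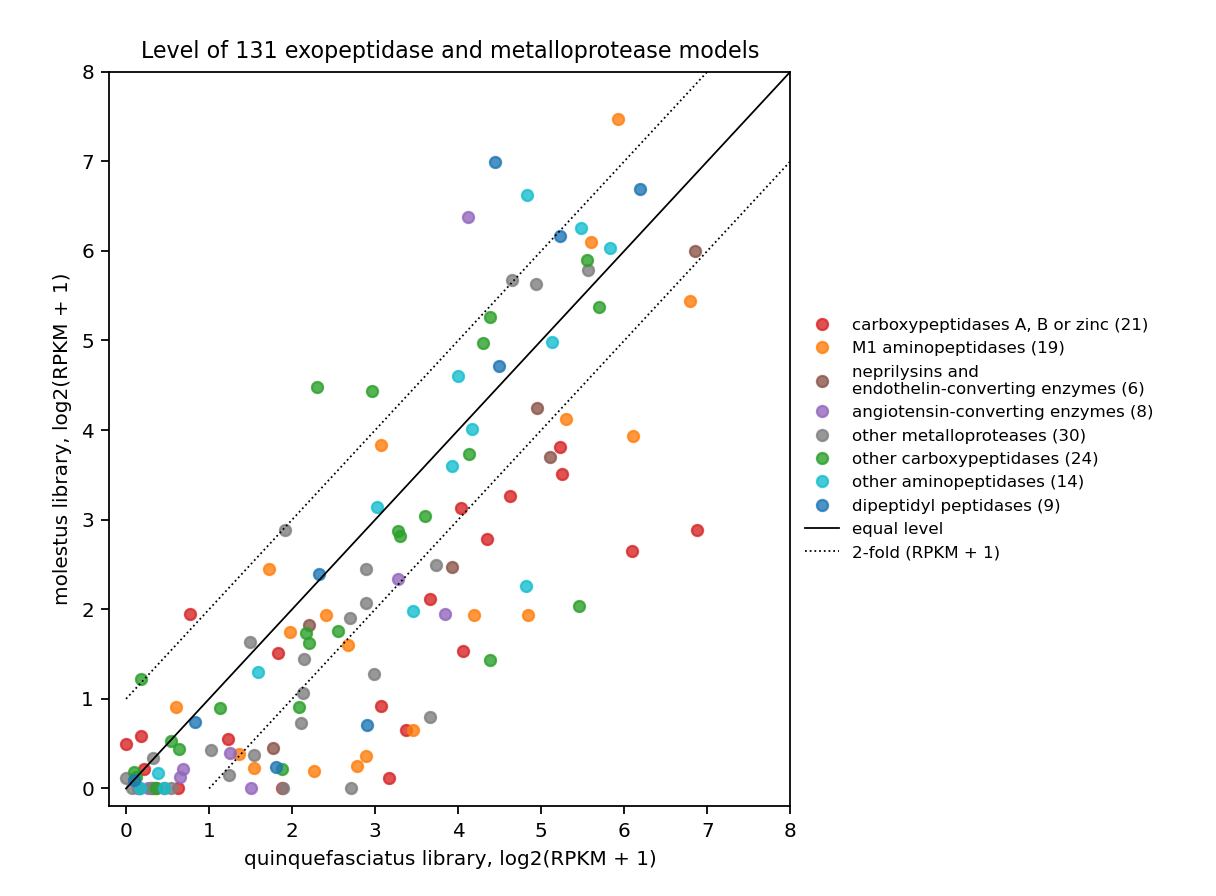
Level of each of the 131 models in the quinquefasciatus library (x axis) and the molestus library (y axis), both as log2(RPKM + 1), coloured by subclass with the number of models in brackets. The solid line marks equal level and the dotted lines mark 2-fold on this scale; 45 models lie on or below the lower dotted line, and 9 on or above the upper one.

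The members were split by name into 8 subclasses, and these did not share 1 pattern. Carboxypeptidases named A, B or zinc had the lowest median log2 ratio, -1.65 over 16 compared models. Aminopeptidases of the M1 family had a median of -1.24 over 18 models, and neprilysins with endothelin-converting enzymes -1.08 over 6. Angiotensin-converting enzymes had a median of -0.93 over 5 models, other metalloproteases -0.82 over 19 and other carboxypeptidases -0.40 over 19. Dipeptidyl peptidases had a median of 0.24 over 7 models and the other aminopeptidases -0.14 over 11. The medians of dipeptidyl peptidases and other aminopeptidases were near that of all models, and the sign of the first depended on scaling, with -0.05 after rescaling by the median ratio.

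**Figure D2:**
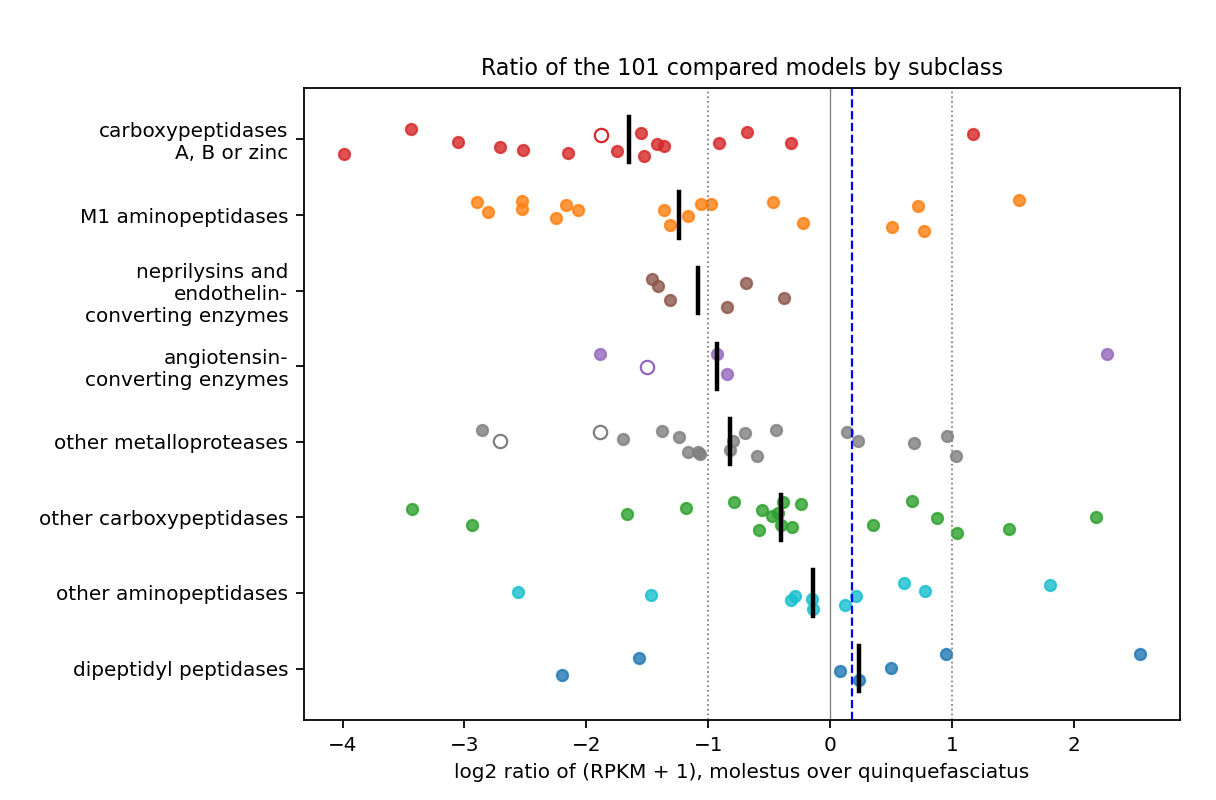
Log2 ratio of (RPKM + 1), molestus over quinquefasciatus, for the 101 compared models by subclass; each point is 1 model, open points have 0 reads in 1 library, and vertical position within a row is arbitrary. Black bars are subclass medians, the dashed line is the median of all compared models (0.18), and dotted lines mark 2-fold; the bar of carboxypeptidases A, B or zinc lies at -1.65 and that of dipeptidyl peptidases at 0.24.

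Carboxypeptidases A and B are the digestive zinc enzymes that remove the last amino acid of a peptide, A-type enzymes preferring bulky and B-type enzymes basic residues. This subclass, with 21 models, held 889 reads or 0.00908% (0.0085 to 0.00970) of the molestus and 5065 reads or 0.0498% (0.0485 to 0.0512) of the quinquefasciatus library, so that its share of reads was 5.49-fold higher (5.11 to 5.90) in the latter. Of its 16 compared models, 12 lay on the quinquefasciatus side (75.0%) and 1 on the molestus side (6.25%), against 18.0% and 22.8% of all compared models. Among the 10 with at least 1 RPKM in both libraries, 8 lay on the quinquefasciatus side, with a median of -1.54. All 12 models described as zinc carboxypeptidase had the higher RPKM in the quinquefasciatus library, under the 3 rescalings too, since these lower the molestus level. Of all 12789 compared models, 5701 had the higher RPKM there. The direction of 5 of the 12 was set by the minimum, which they met through the quinquefasciatus library alone. Among the 7 with at least 1 RPKM in both libraries, 6 lay on the quinquefasciatus side.

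The zinc carboxypeptidase CPIJ011998 was the most abundant of all members in the quinquefasciatus library, at 116 RPKM (1645 reads), and ranked 38 in the molestus library, at 6.38 RPKM (87 reads). Its level was 18.2-fold higher (14.7 to 22.9) in the quinquefasciatus library. CPIJ011999 had 5.27 RPKM in the molestus and 67.0 RPKM in the quinquefasciatus library, a 12.7-fold higher level (9.93 to 16.5) in the latter. CPIJ011997, the identifier before these, had 0 molestus and 36 quinquefasciatus reads, a level at least 11.6-fold higher against the floor of 3 reads per library. In this run of consecutive identifiers, CPIJ011998 and CPIJ011999 lay on the quinquefasciatus side with at least 1 RPKM in both libraries. Of all models at that level in both, 13.9% lay on that side. CPIJ011997 met the minimum through the quinquefasciatus library alone, which set its direction.

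Other zinc carboxypeptidases were lower in level. The minimum set the direction of CPIJ001742, CPIJ001743, CPIJ001744 and CPIJ010137, which met it through the quinquefasciatus library alone. In the run CPIJ001742 to CPIJ001745, molestus levels reached from 0.0811 to 3.34 RPKM and quinquefasciatus levels from 1.34 to 11.6 RPKM. CPIJ001744 had 1 molestus read against 102 quinquefasciatus reads, a ratio of 98.2 (17.2 to 3916). In the pair CPIJ010137 and CPIJ010138 the quinquefasciatus level was 16.2-fold (7.63 to 41.2) and 8.22-fold (5.37 to 13.1) higher. CPIJ015252 and CPIJ015253 were closer, at 1.99-fold (1.57 to 2.54) and 3.26-fold (2.53 to 4.24).

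The longest run of consecutive identifiers, CPIJ010799 to CPIJ010806, held 8 models described as carboxypeptidase A1, B or zinc carboxypeptidase, of very unequal level. Carboxypeptidase B CPIJ010799 had 13.0 RPKM (161 reads) in the molestus and 36.4 RPKM (469 reads) in the quinquefasciatus library, 2.80-fold higher (2.34 to 3.38) in the latter. Carboxypeptidase A1 CPIJ010804 had 10.4 against 37.2 RPKM, 3.58-fold higher (2.95 to 4.37), and zinc carboxypeptidase CPIJ010803 8.59 against 23.7 RPKM, 2.75-fold higher (2.21 to 3.46). The neighbouring numbers CPIJ010801, CPIJ010802, CPIJ010805 and CPIJ010806 had at most 7 reads in either library and are given no fold. Among the compared models of the subclass, carboxypeptidase B CPIJ010796 alone had the higher level in the molestus library, at 2.85 RPKM (27 reads) against 0.711 RPKM (7 reads), 4.01-fold higher (1.70 to 10.9). Its place on the molestus side was lost under all 3 rescalings, and its counting interval reached below 2-fold. Below the minimum, CPIJ009394 had 7 molestus and 2 quinquefasciatus reads and CPIJ010801 had 5 and 0.

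**Figure D3:**
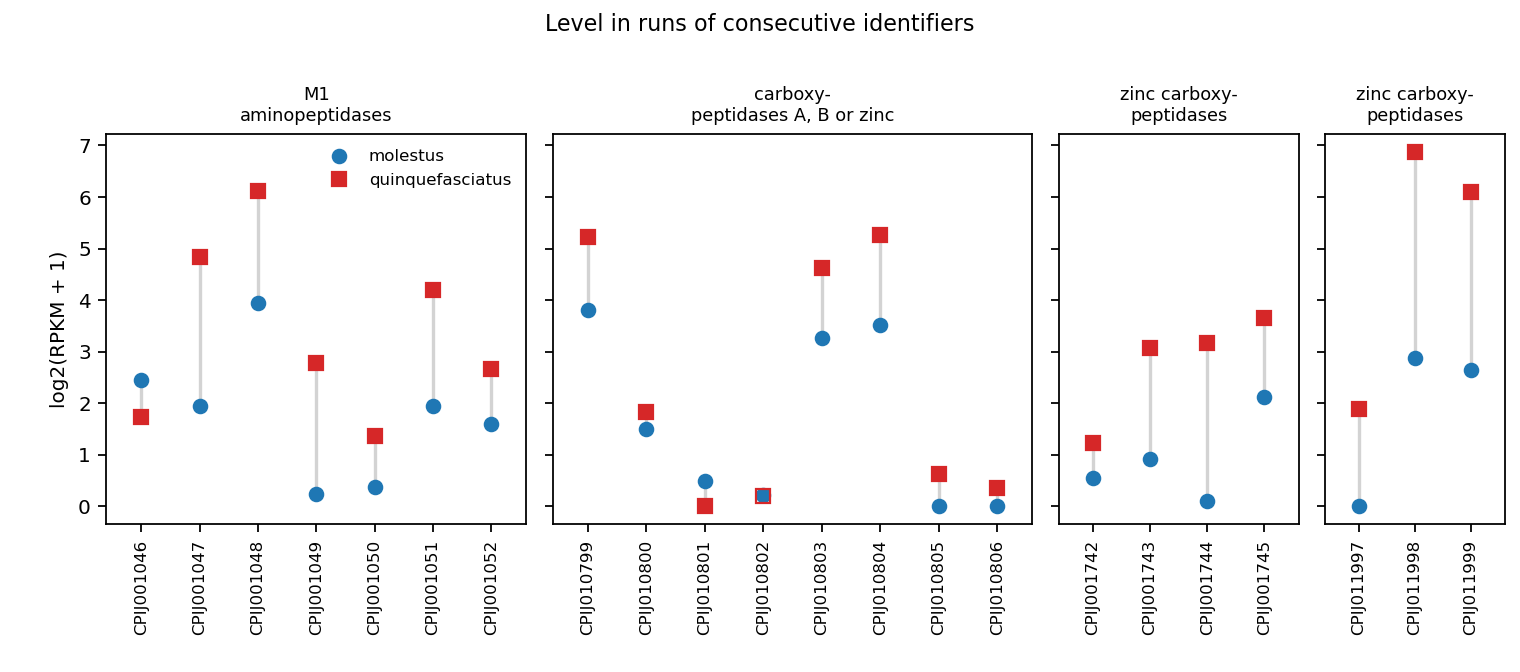
Level as log2(RPKM + 1) of members with consecutive identifiers, in 4 panels, with molestus as blue circles and quinquefasciatus as red squares joined by a grey line for each model; each library is a single value with no error bar. The quinquefasciatus square is higher for 6 of 7 M1 aminopeptidases, for 6 of 8 models from CPIJ010799 to CPIJ010806 and for all 7 zinc carboxypeptidases of the other panels. CPIJ001049, CPIJ001050, CPIJ001742, CPIJ001743, CPIJ001744 and CPIJ011997 met the minimum through the quinquefasciatus library alone, which set their direction.

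Aminopeptidases of the M1 family remove the first amino acid. Aminopeptidase N is anchored on the surface of midgut cells, where in several insects it is also a binding site for Bacillus thuringiensis toxins, and puromycin-sensitive aminopeptidase acts in the cytosol. The 19 models of the family held the largest share of the class in both libraries, 28.8% of its molestus and 32.8% of its quinquefasciatus reads. Of 18 compared models, 1 lay on the molestus side (5.56%) and 11 on the quinquefasciatus side (61.1%), against 22.8% and 18.0% of all compared models. The minimum was met through the quinquefasciatus library alone by 6 of the 18, and among the 12 with at least 1 RPKM in both libraries 6 lay on the quinquefasciatus side, with a median log2 ratio of -0.77. Summed reads of aminopeptidase N and the puromycin-sensitive aminopeptidase differed in opposite directions.

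The 14 aminopeptidase N models held 2838 reads for molestus and 8792 for quinquefasciatus, a share 2.98-fold higher (2.86 to 3.11) in the latter. The most abundant, CPIJ011548, had 42.4 RPKM (1168 reads) in the molestus and 110 RPKM (3148 reads) in the quinquefasciatus library, 2.59-fold higher (2.43 to 2.78). CPIJ006295 had 16.4 against 38.3 RPKM, 2.33-fold higher (2.10 to 2.59). Low models ranged widely. CPIJ014660, at 2.83 against 4.30 RPKM, was 1.52-fold higher (1.13 to 2.05) in the quinquefasciatus library. CPIJ008387 and CPIJ008388, with consecutive identifiers, had quinquefasciatus levels 17.5-fold (12.2 to 26.1) and 22.3-fold (11.1 to 52.3) above those of molestus, and CPIJ012036 had 4 reads against 107. CPIJ011546 went the other way, at 13.3 RPKM in the molestus and 7.41 RPKM in the quinquefasciatus library, 1.79-fold higher (1.52 to 2.13) in the former.

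A run of 7 consecutive identifiers, CPIJ001046 to CPIJ001052, named aminopeptidase N or glutamyl aminopeptidase, showed how far such models can differ among themselves. CPIJ001048 was the highest, at 14.3 RPKM in the molestus and 68.0 RPKM in the quinquefasciatus library, 4.75-fold higher (4.28 to 5.28) in the latter. CPIJ001047 had 2.84 against 27.7 RPKM, 9.74-fold higher (7.68 to 12.5). CPIJ001049 had 5 reads against 161, 31.0-fold higher (13.0 to 96.8). The remaining models of the run ranged from the glutamyl aminopeptidase CPIJ001051, 6.09-fold higher (4.75 to 7.91) in the quinquefasciatus library, to CPIJ001046, at 4.45 against 2.31 RPKM and 1.92-fold higher (1.40 to 2.67) in the molestus library. Paralogs of this kind can lose reads that match several of them in tables of uniquely assigned reads, so the division of reads within the run is uncertain.

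Puromycin-sensitive aminopeptidase (CPIJ008439) was the most abundant of all members in the molestus library. It had 177 RPKM (4508 reads) there and 59.8 RPKM (1579 reads) in the quinquefasciatus library, 2.97-fold higher (2.80 to 3.14) in the molestus library. It alone made up 13.6% of the class reads for molestus and 4.14% for quinquefasciatus, and without it the M1 family held a share 2.08-fold higher (2.01 to 2.15) in the quinquefasciatus library, in place of 1.26-fold. The most abundant glutamyl aminopeptidase (CPIJ011103), an enzyme that removes acidic residues, had 67.8 against 47.4 RPKM, 1.43-fold higher (1.34 to 1.53) in the molestus library.

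The other aminopeptidases include intracellular enzymes needed in most cells. Methionine aminopeptidases, which remove the first methionine of new proteins, numbered 4, and 0 of these were 2-fold apart. The furthest, CPIJ005763, had 75.3 RPKM in the molestus and 43.4 RPKM in the quinquefasciatus library, 1.74-fold higher (1.55 to 1.94) in the former, while CPIJ011945, at 30.6 against 34.0 RPKM, had an interval of the fold that included 1 (0.793 to 1.03). Leucine aminopeptidase CPIJ009825, of a family of cytosolic enzymes, was the only one of these on the molestus side, with 97.5 RPKM (1477 reads) in the molestus and 27.3 RPKM (430 reads) in the quinquefasciatus library, 3.57-fold higher (3.20 to 3.98). A further leucine aminopeptidase (CPIJ016662) was 1.56-fold higher (1.33 to 1.84) in the molestus library, and cytosol aminopeptidase CPIJ002841 1.16-fold higher (1.06 to 1.26), or 0.978-fold with TMM factors.

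Enzymes that cut next to proline differed between models of the same name. Xaa-Pro aminopeptidase CPIJ015407, of a family that removes a first residue followed by proline, had 3.78 RPKM (68 reads) in the molestus and 27.2 RPKM (508 reads) in the quinquefasciatus library, 7.19-fold higher (5.58 to 9.41) in the latter. Its namesake CPIJ006323, at 15.1 against 16.9 RPKM, had an interval that included 1-fold (0.939 to 1.34). The alanyl aminopeptidases, which the split by name placed here although alanyl aminopeptidase is another name of aminopeptidase N, were low, at most 2.96 RPKM in the molestus and 9.98 RPKM in the quinquefasciatus library.

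Dipeptidyl peptidases release dipeptides from the amino end. The 9 models held 5791 molestus reads and 3393 quinquefasciatus reads, a share 1.77-fold higher (1.70 to 1.85) in the molestus library and still 1.44-fold higher after rescaling by the median ratio. Dipeptidyl peptidase III (CPIJ020236), a cytosolic zinc enzyme, had the highest log2 ratio of all members, 2.54, at 126 RPKM (1181 reads) in the molestus and 20.8 RPKM (203 reads) in the quinquefasciatus library. It was 6.04-fold higher (5.20 to 7.05) in the molestus library. CPIJ011776 and CPIJ005356, of no stated type, had molestus levels 1.95-fold (1.81 to 2.11) and 1.42-fold (1.33 to 1.52) those of quinquefasciatus.

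Dipeptidyl-peptidase II, a lysosomal serine enzyme in mammals, was split between its models. CPIJ007406 had 25.3 against 21.4 RPKM, 1.19-fold higher (1.02 to 1.38) in the molestus library and 0.965-fold after rescaling by the median ratio. CPIJ018060 had 9 molestus and 96 quinquefasciatus reads, 10.3-fold higher (5.19 to 23.1) in the latter. The next identifier, prolylcarboxypeptidase CPIJ018061, whose family removes a last residue that follows proline, had 1.71 RPKM (26 reads) in the molestus and 19.9 RPKM (313 reads) in the quinquefasciatus library, 11.6-fold higher (7.76 to 18.0). Of this pair, CPIJ018061 lay on the quinquefasciatus side with at least 1 RPKM in both libraries, where 13.9% of all such models lay. CPIJ018060 met the minimum through the quinquefasciatus library alone, which set its direction.

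The other carboxypeptidases joined enzymes of several families, with 3 of 19 compared models on the molestus side (15.8%) and 4 on the quinquefasciatus side (21.1%), near the 22.8% and 18.0% of all compared models. Serine carboxypeptidases described as retinoid-inducible lay at the quinquefasciatus end, where the minimum set the direction of CPIJ002910, met through that library alone. CPIJ002911 had 3.09 RPKM (42 reads) in the molestus and 43.0 RPKM (606 reads) in the quinquefasciatus library, 13.9-fold higher (10.2 to 19.5), and its neighbour in number CPIJ002910 had 2 reads against 35, a ratio of 16.8 (4.33 to 145). Lysosomal Pro-X carboxypeptidase CPIJ013280 was nearly level, at 40.6 against 50.7 RPKM, 1.25-fold higher (1.12 to 1.39) in the quinquefasciatus library. The run CPIJ008873 to CPIJ008876 of the same enzyme family had at most 4 quinquefasciatus reads per model. Its only model with more than 4 reads in either library, CPIJ008873, had 19 reads in molestus and 2 in quinquefasciatus, for a ratio of 9.87 (2.38 to 87.4).

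A run of 3 consecutive identifiers of carboxypeptidases D, M and m14 was higher in the molestus library. Carboxypeptidase D, the product of the silver gene in Drosophila, processes peptides in the secretory pathway, and carboxypeptidase M acts at the cell surface. Carboxypeptidase D CPIJ009464 had 30.4 against 18.7 RPKM, 1.63-fold higher (1.47 to 1.81), and carboxypeptidase M CPIJ009465 37.4 against 19.8 RPKM, 1.89-fold higher (1.61 to 2.22). The m14 carboxypeptidase CPIJ009466 had 20.7 against 6.81 RPKM, 3.04-fold higher (2.22 to 4.22). Whether these 3 models belong to 1 gene was not tested. A second carboxypeptidase M, CPIJ019890, was 1.46-fold higher (1.12 to 1.91) in the quinquefasciatus library.

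Plasma glutamate carboxypeptidase CPIJ001174 had 21.4 RPKM (304 reads) in the molestus and 3.93 RPKM (58 reads) in the quinquefasciatus library, 5.44-fold higher (4.10 to 7.34) in the former, while its namesake CPIJ019695 was 2.04-fold higher (1.34 to 3.16) in the latter. The 5 models named carboxypeptidase N subunit 2, in mammals a leucine-rich repeat partner with no catalytic activity, all had the higher RPKM in the quinquefasciatus library, with log2 ratios from -1.18 to -0.39. That was so for 5701 of all 12789 compared models, and 1 of the 5 met the minimum through that library alone. A protein with a carboxypeptidase regulatory region (CPIJ011486), whose name states no enzyme, was 1.28-fold higher (1.14 to 1.43) in the molestus library, at 58.6 against 45.8 RPKM.

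Neprilysins and endothelin-converting enzymes are membrane zinc peptidases that cut small signalling peptides, among them neuropeptides. All 6 models had the higher RPKM in the quinquefasciatus library, as did 5701 of all 12789 compared models. At least 2-fold apart on that side lay 3 of the 6, against 18.0% of all compared models. The minimum was met through the quinquefasciatus library alone by 1. Among the 5 with at least 1 RPKM in both libraries, 2 lay on the quinquefasciatus side. Endothelin-converting enzyme CPIJ007513 was the second most abundant member in the quinquefasciatus library, at 114 RPKM (1866 reads) against 62.9 RPKM (993 reads) in the molestus library, 1.81-fold higher (1.67 to 1.96). Neprilysin-2 CPIJ007512, the preceding identifier, was 1.65-fold higher (1.40 to 1.95). Reads covered only 29.9% (molestus) and 42.6% (quinquefasciatus) of its 1299 bases. Whether CPIJ007512 and CPIJ007513 belong to 1 gene was not tested. Endothelin-converting enzyme CPIJ016938 had 12.0 against 33.5 RPKM, 2.79-fold higher (2.44 to 3.20), and neprilysin CPIJ014904 4.53 against 14.2 RPKM, 3.13-fold higher (2.51 to 3.93). Beside the latter, the zinc metalloprotease CPIJ014903 had 17 reads against 279, 15.8-fold higher (9.69 to 27.5).

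Angiotensin-converting enzymes remove dipeptides from the carboxyl end of peptides, and in Drosophila a secreted form is needed for fertility. Of 8 models, 5 were compared, and the most abundant set the sum. CPIJ009106 had 82.4 RPKM (1622 reads) in the molestus and 16.3 RPKM (333 reads) in the quinquefasciatus library, 5.06-fold higher (4.49 to 5.71) in the former. The other 4 compared models had the higher RPKM in the quinquefasciatus library, and 2 of them met the minimum through that library alone. CPIJ004086 had 2.85 against 13.3 RPKM, 4.65-fold higher (3.76 to 5.81), and CPIJ009107, the identifier after CPIJ009106, 4.05 against 8.65 RPKM, 2.13-fold higher (1.61 to 2.85). CPIJ016658 had 0 molestus and 33 quinquefasciatus reads, at least 10.6-fold higher. The median log2 ratio of the subclass was -0.93 while its share of reads was 1.77-fold higher (1.64 to 1.91) in the molestus library, so the 2 summaries differed in direction. Without CPIJ009106 the share was 3.82-fold higher (3.24 to 4.52) in the quinquefasciatus library.

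Of the remaining 30 metalloproteases, 19 were compared. On the molestus side lay 1 (5.26%) and on the quinquefasciatus side 9 (47.4%), against 22.8% and 18.0% of all compared models. The minimum was met through the quinquefasciatus library alone by 7. Among the 12 with at least 1 RPKM in both libraries, 1 and 3 lay on these sides. Those described as ATP-dependent or m41 ftsh were abundant and at most 2.08-fold apart. Proteases of the FtsH family degrade damaged proteins of the mitochondrial inner membrane. The m41 ftsh metalloprotease CPIJ006578 had 54.3 against 46.3 RPKM, 1.17-fold higher (1.08 to 1.27) in the molestus library and 0.992-fold with TMM factors. The ATP-dependent metalloprotease CPIJ002647 had 50.1 against 24.1 RPKM, 2.08-fold higher (1.89 to 2.29), and CPIJ011183, of no stated type, 48.4 against 29.6 RPKM, 1.63-fold higher (1.50 to 1.77).

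Matrix metalloproteinases, which remodel the extracellular matrix, were low. Of 7 models, 5 were compared, and the highest, CPIJ010856, had 4.63 RPKM (73 reads) in the molestus and 12.3 RPKM (201 reads) in the quinquefasciatus library, 2.65-fold higher (2.02 to 3.51). Of 4 models named discoidin, cub, egf, laminin and zinc metalloprotease, CPIJ019170 was 4.84-fold higher (3.50 to 6.82) in the quinquefasciatus and CPIJ013638 2.29-fold higher (1.86 to 2.83) in the molestus library. The 11 models named zinc metalloproteinase, for which the descriptions give no family, had 10 molestus and 110 quinquefasciatus reads in all, and 9 of them had 0 molestus reads. Most quinquefasciatus reads came from 3 models. CPIJ002941 had 47 of them (5.56 RPKM), at least 15.1-fold higher against the floor, and CPIJ002944 had 22 (2.72 RPKM), at least 7.06-fold higher. CPIJ009596 had 9 molestus reads (1.09 RPKM) and 29 quinquefasciatus reads (3.37 RPKM). CPIJ002941, CPIJ002944, CPIJ011997 and CPIJ016658 were the members with 0 reads in 1 library and at least 10 in the other, all on the quinquefasciatus side, where 1.17% of all listed models were of that kind and 0.500% on the molestus side.

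**Figure D4:**
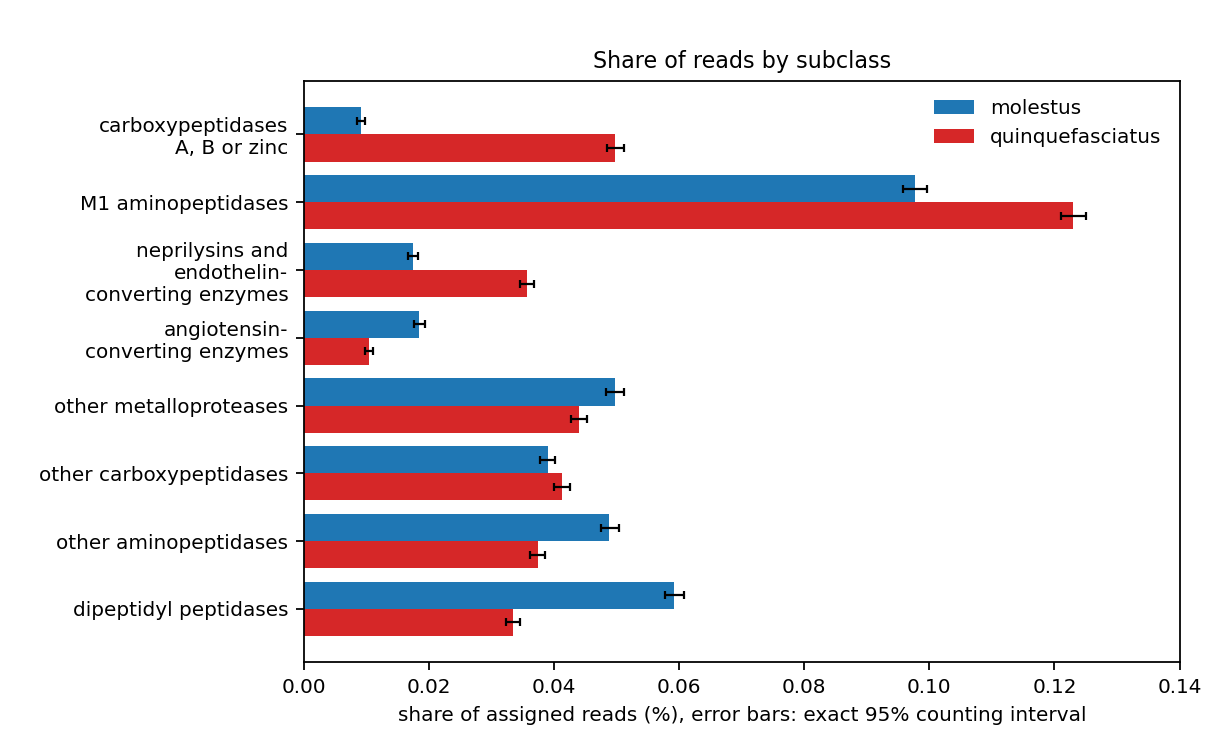
Share of assigned reads, in percent, held by each subclass in the molestus (blue) and quinquefasciatus (red) libraries, 1 library each; error bars are exact 95% counting intervals. Carboxypeptidases A, B or zinc stood at 0.00908% against 0.0498%, and dipeptidyl peptidases at 0.0592% against 0.0334%.

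The order of abundance within the class therefore differed between the libraries. Of the 10 most abundant members of each library, 5 were shared. The first 5 in the molestus library were puromycin-sensitive aminopeptidase, dipeptidyl peptidase III, dipeptidyl-peptidase CPIJ005356, leucine aminopeptidase CPIJ009825 and angiotensin-converting enzyme CPIJ009106. In the quinquefasciatus library they were zinc carboxypeptidase CPIJ011998, endothelin-converting enzyme CPIJ007513, aminopeptidase N CPIJ011548, dipeptidyl-peptidase CPIJ005356 and aminopeptidase N CPIJ001048. The top 10 held 53.9% of class reads for molestus and 42.1% for quinquefasciatus. Spearman's rho of RPKM between the libraries was 0.765 over the 101 compared members and 0.826 over all compared models, as a description over models that share their libraries.

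The ratio also went with the level. Among the 51 members with a mean of both libraries from 1 to 10 RPKM, the median log2 ratio was -1.17, against -0.30 over all 4820 such models. Among the 43 members with a mean of at least 10 RPKM it was -0.15, against 0.48 over 7261 models. In this upper range 7 members (16.3%) lay on the molestus side and 15 (34.9%) on the quinquefasciatus side, where all models of that level gave 28.6% and 11.9%.

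Other genes of protein digestion, taken by their descriptions, gave values on both sides. Trypsins and chymotrypsins, the endopeptidases that act before the exopeptidases, held a share of reads 5.65-fold higher (5.57 to 5.73) in the quinquefasciatus library, and 8.49-fold higher without trypsin-1 CPIJ000835, which held 14431 molestus and 61385 quinquefasciatus reads. Other serine proteases held a share 8.38-fold higher (8.26 to 8.51), set by the single model CPIJ015368 with 10465 molestus and 148276 quinquefasciatus reads. Without it their share was 1.89-fold higher (1.84 to 1.94), and the median log2 ratio of their compared models was -0.59. Of these 86 models, 31 lay on the quinquefasciatus side (36.0%) and 10 on the molestus side (11.6%). Oligopeptide and amino acid transporters, which take up the products or carry transmitters, had 15 of 33 on the quinquefasciatus side (45.5%) and 2 on the molestus side (6.06%). Cathepsins, lysosomal proteases, had 1 on each side of 6 compared, and cathepsin L CPIJ006471 stood at 439 against 448 RPKM, with an interval of the fold that included 1 (0.945 to 1.02). Peptidase inhibitors, mainly serpins, had 3 of 17 on the quinquefasciatus side (17.6%) and 2 on the molestus side (11.8%), against 18.0% and 22.8% over all compared models. The vitellogenic carboxypeptidases, left out of the class, were 3 models of which CPIJ008608 held nearly all reads, 5346 in molestus and 2182 in quinquefasciatus, 2.54-fold higher (2.42 to 2.68) in the former. The share of the others differed by 1.06-fold, with an interval that included 1 (0.885 to 1.27).

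Levels of some tissue markers also differed between the libraries. The counts of each list stand against 22.8% of all compared models on the molestus side and 18.0% on the quinquefasciatus side. Midgut markers (peritrophins, maltases and alpha-amylases) lay on the quinquefasciatus side for 22 of 36 compared models and on the molestus side for 3, with summed levels of 218 RPKM in the molestus and 1069 RPKM in the quinquefasciatus library. Of the 59 listed, 10 had 0 molestus and 8 had 0 quinquefasciatus reads. Ovary and germ-line markers (vasa, nanos, piwi and bicaudal) had 6 of 12 on the molestus side and 4 on the quinquefasciatus side, with summed levels of 1029 and 323 RPKM and none at 0. Muscle markers had 2 of 19 on the molestus side and 11 on the quinquefasciatus side, with sums of 1331 and 2691 RPKM and none at 0. Eye markers had 4 and 8 of 30 in the same order, with sums of 14373 and 29376 RPKM. Of the 34 listed, 1 had 0 molestus reads and none had 0 quinquefasciatus reads. Salivary gland markers had nearly equal sums, 1349 and 1347 RPKM, but 1 of 20 lay on the molestus and 11 on the quinquefasciatus side. Their median log2 ratio was -1.11, and of the 32 listed 14 had 0 molestus and 3 had 0 quinquefasciatus reads. Their top model, CPIJ018794, carried most of both sums, which were 454 and 591 RPKM without it. Fat body markers had 1 and 0 of 6, with 1 and 2 of the 11 listed at 0. Their sums of 557 and 439 RPKM turned to 186 and 293 RPKM without the vitellogenic carboxypeptidase CPIJ008608. The part of tissue content in the differences between the peptidases was not tested.

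The percent of each model covered by reads was a further deposited measure. For the 38 members with at least 100 reads in both libraries, the median was 91.7% for molestus and 96.0% for quinquefasciatus, against 95.6% and 95.5% over all 6335 such models. Of the 19 such members with more molestus reads, 5 nevertheless had the lower percent covered there, and of the 19 with more quinquefasciatus reads, 0 had the lower percent there. Over all models those counts were 1400 of 4185 and 680 of 2142. Angiotensin-converting enzyme CPIJ009106 was among the 5, with 1622 molestus reads on 91.8% of its 2012 bases and 333 quinquefasciatus reads on 97.1%. Endothelin-converting enzyme CPIJ007513 was covered over 63.6% and 73.7% despite 993 and 1866 reads. The part of uneven coverage in the ratios was not tested, nor was that of how well the reads of each taxon matched the models.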

How the data were processed

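The authors deposited, per the file headers, 1 table per taxon with the count of uniquely assigned reads, the model length, the percent of the model covered by reads, the RPKM value and a description for each transcript model. Total RNA was pooled from 30 females per taxon and made into non-directional libraries after poly(A) selection, per the labels' protocols. No label or header names the aligner, the filters or the gene-model release. Both tables were joined on the identifier, and an unlisted model was taken as 0 reads. Deposited RPKM was recomputed from count, length and library total and differed by at most 4.98e-06%. Unique assignment undercounts near-identical copies, and in libraries without strand an antisense gene adds to the count of the gene it overlaps. The identifiers matched 0 entries of the reference table of gene names.

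Members were found by the text of the description and split into 8 subclasses by the first matching pattern. The members and lists were chosen with earlier results of these data known. Ratios used a pseudocount of 1 RPKM, which understates the ratio of low models. Folds of single models are RPKM ratios with an exact conditional binomial (Clopper-Pearson) interval, or lower bounds against 3 reads where a library had 0. Named models were, per subclass, the 4 most abundant and, per direction, at most 2 furthest apart (at least 10 RPKM and 50 reads in the higher library), and those at 0 reads in 1 library with at least 10 in the other. Others, mainly in runs of consecutive identifiers, were named after their values were seen. No count test was run with 1 library per group. Alternatives were other pseudocounts, minimums, thresholds, scalings and class patterns. Sums of reads were also computed without the model with most reads in each list, an alternative chosen after seeing the data. Calls and intervals were tried on simulated counts with counting error only, the error that the intervals assume. Altered models there had at least 10 RPKM and 50 expected reads. Altered low models and the spread between libraries were not covered. Python 3.11.15, numpy 2.4.6, pandas 2.3.3, scipy 1.17.1, matplotlib 3.10.9, R 4.3.3 and edgeR 4.0.16 (TMM factors only) were used.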

Additional observations from a re-analysis of the deposited data

How the results depend on the processing

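No paired analysis was possible because each group had 1 library. Under all settings tried, more members lay on the quinquefasciatus than on the molestus side, and the median over the members was negative. Of the 101 compared members, 5 and 13 (molestus and quinquefasciatus) lay on these sides at a pseudocount of 10, with a median of -0.25. At a 4-fold threshold 3 and 19 did so. Of all 12789 compared models, 1326 and 618 did so at the first setting and 615 and 508 at the second. A minimum of 10 RPKM gave 7 and 21 members, and 2331 and 1139 of all models. That minimum leaves fewer models compared, so these counts have other totals. The ratio of the class share of reads, 0.905, was 0.969 at a minimum of 10 RPKM, 0.737 after rescaling by the median ratio, 0.765 with TMM factors, 0.764 after rescaling without the most abundant models, 0.875 without models named metalloprotease or metalloproteinase alone, 0.994 with the vitellogenic carboxypeptidases, and, chosen after seeing the data, 0.816 without puromycin-sensitive aminopeptidase, the model with most reads. The share ratio of angiotensin-converting enzymes without their model with most reads was 0.262 in place of 1.77.

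Subclass medians depended on low models. At a minimum of 10 RPKM the median turned positive for angiotensin-converting enzymes (0.19), other aminopeptidases (0.03), other carboxypeptidases (0.02) and other metalloproteases (0.23), and that of dipeptidyl peptidases was 0.72. Over all 7261 models with a mean of at least 10 RPKM, a related but different set, the median was 0.48. Of these subclass medians, only that of dipeptidyl peptidases lay above it. A pseudocount of 0.1 gave -1.82 for angiotensin-converting enzymes, -1.71 for M1 aminopeptidases and -1.36 for other metalloproteases. A pseudocount of 10 gave -0.24, -0.40 and -0.21 for these, -0.62 for neprilysins and endothelin-converting enzymes and -0.85 for carboxypeptidases A, B or zinc. After rescaling by the median ratio, dipeptidyl peptidases had -0.05, other aminopeptidases -0.43 and neprilysins with endothelin-converting enzymes -1.26; with TMM factors and without the most abundant models, the first had 0.00 and the second -0.38. The share ratio of other metalloproteases, 1.13, turned to 0.92 by the median ratio and 0.955 under both other rescalings. Of 40 folds of named models, 3 changed side of 1 under at least 1 rescaling, those of CPIJ002841, CPIJ006578 and CPIJ007406. A minimum on the mean of both libraries, chosen after seeing the data, gave 8 and 43 members, and 2813 and 2104 of all models. The causes were not tested. Models under the floor of 3 reads in both libraries could not be compared at this depth.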
